A study of Homo sapiens with 6 samples.

Results

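The genes of the cleavage and polyadenylation machinery were examined in HK2, a human cell line derived from kidney proximal tubule epithelium, after infection with an adenovirus that held either an empty vector (AdCtrl) or SIRT4 (AdSirt4). The set comprised CPSF1, CPSF2, CPSF3, CPSF4, CPSF6, CPSF7, CSTF1, CSTF2, CSTF3 and NUDT21, taken by symbol from the deposited tables, and all 10 symbols were present among the 38100 genes listed. Each group held 3 samples, all of wild-type genotype per the labels and all stimulated with TGF-β1, so that no sample without TGF-β1 and none without virus was analysed here. The dose and duration of the stimulation for these samples are not given in the sources used here. Sample values are listed throughout in the order of replicates 1, 2 and 3. The cell-line label gives a different HK number for each sample, whereas every title names HK2. The study describes n in its in vitro work as technical replicates, and if this holds for the sequenced samples, the p-values measure only the spread between such samples.

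Most messenger RNAs are cut downstream of the hexamer AAUAAA and then receive a poly(A) tail. The cleavage and polyadenylation specificity factor (CPSF) binds the hexamer and cuts the RNA, the cleavage stimulation factor (CstF) binds GU-rich sequence downstream of the cut, and cleavage factor I binds UGUA elements upstream of it. Where a gene has several such sites, the amounts of these factors are known to influence which site is used. The machinery also touches the splicing factor U2AF2, the protein at the centre of the study, which is known to contact the large subunits of cleavage factor I and the poly(A) polymerase when the last intron is removed. The comparison asks whether the transcripts of the 3′-end machinery differed between AdSirt4 and AdCtrl cells. The data are read counts per gene and cannot show which poly(A) site was used.

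No factor passed the threshold. Of the 10 genes, 0 had an adjusted p under 0.05 and 0 an unadjusted p under 0.05 in edgeR's quasi-likelihood test. This main test did not pair the samples by replicate number. Of all 17720 genes tested, 0.0113% had an adjusted p under 0.05 and 7.93% an unadjusted one (4.43% higher and 3.5% lower in AdSirt4 cells). In DESeq2, 0 factors had an adjusted p under 0.05 and 1, CPSF6, an unadjusted one, beside 206 and 1638 (9.24%) of the 17720 genes. The log2 fold change of AdSirt4 over AdCtrl cells ran from -0.11 for CPSF1 to 0.22 for CPSF6. Its median was 0.049 over the factors and 0.021 over all tested genes. It was above 0 for 6 factors and below 0 for 4, while 53.4% of all tested genes lay above 0. The 95% intervals of all 10 fold changes lay between 0.785-fold and 1.37-fold. In normalized counts (CPM, scaled by library size) the groups did not overlap for 3 factors, beside 19.4% of all tested genes. These were CPSF6 and CSTF2, higher in AdSirt4 cells as were 9.66% of all genes, and CPSF1, lower as were 9.77%. On the FPKM scale, which also divides by transcript length, this held for CPSF6 and CSTF1, beside 17.2% of all tested genes. CPSF6, the factor nearest to the threshold, was the one factor apart on both scales in the same direction, beside 14.1% of all tested genes. In bulk samples, fewer cells that express a gene and less RNA per cell cannot be told apart.

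Counts summed to 53677241, 42102861 and 50190728 in the AdCtrl samples and to 41537353, 85684748 and 80040053 in the AdSirt4 samples. AdSirt4 replicates 2 and 3 were thus deeper than every AdCtrl sample, which matters where AdSirt4 replicate 1 is left out. SIRT4 itself had raw counts of 31, 47 and 57 in the AdCtrl samples and 1996, 7995 and 6827 in the AdSirt4 samples (adjusted p of 0.00801 in edgeR), which matches the labels. Keratins, EPCAM and PAX8 were expressed, and 10 of 16 tubular markers reached a mean of 1 CPM over all samples. Among these were GGT1 (means of 237 CPM in AdCtrl and 214 CPM in AdSirt4 cells) and MME (12.6 and 12.8 CPM). LRP2, CUBN, AQP1, ANPEP and SLC34A1, markers of the mature proximal tubule, and CDH1 did not reach it. The summed tubular markers lay between 2066 and 2124 CPM in AdCtrl and between 1960 and 2531 CPM in AdSirt4 samples. Summed markers of endothelium stayed at or below 0.742 CPM in every sample, and COL3A1 and CD3E were at 0. Of 7 fibroblast markers, 2 reached a mean of 1 CPM over all samples. These were COL1A1 (means of 25.8 CPM in AdCtrl and 21.6 CPM in AdSirt4 cells) and LUM (16.1 and 17.8 CPM). PDGFRB reached it in AdCtrl cells only (1.12 and 0.817 CPM). The summed fibroblast markers lay between 41.7 and 45.1 CPM in AdCtrl and between 40.0 and 40.8 CPM in AdSirt4 samples. The leukocyte sum, nearly all of it CD68, lay between 34.5 and 39.8 CPM and between 38.7 and 49.6 CPM. AdSirt4 replicate 1 stood apart from the other libraries. Its log2 CPM relative to AdSirt4 replicates 2 and 3 was higher for short genes and lower for long ones, with a median of 0.66 in the shortest 10% of genes and -0.74 in the longest 10%. Each result below is therefore given with that library, and without it where its value matters.

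The level of each transcript was compared between genes on the FPKM scale, which divides the count by both transcript length and library size. NUDT21 had the highest level, 47.2 ± 3.29 FPKM in AdCtrl cells (SD, n = 3), and was followed by CPSF3 (25.1 ± 0.472), CPSF4 (25.0 ± 2.41) and CPSF1 (25.0 ± 1.27). The samples of these 3 CPSF genes overlapped, so their order is not resolved. CPSF7 (22.8 ± 0.358 FPKM), CSTF3 (18.2 ± 0.713), CPSF6 (14.1 ± 0.507), CSTF2 (11.6 ± 0.625), CSTF1 (8.01 ± 0.0863) and CPSF2 (4.59 ± 0.115) came next, and no AdCtrl sample of any of these 6 reached the level of the gene before it, although 1 CPSF4 sample, at 22.3 FPKM, lay below the CPSF7 samples. NUDT21 lay at the 92.8th percentile of all tested genes by mean FPKM and CPSF2 at the 49.8th. The low FPKM of CPSF2 goes with a long transcript, since the deposited tables imply 14.9 kb for CPSF2 and between 2.00 and 7.41 kb for the other 9 genes. In AdSirt4 cells the order of the means was the same, but CPSF7 ranged from 16.7 to 25.0 FPKM and overlapped both of its neighbours.

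**Figure D1:**
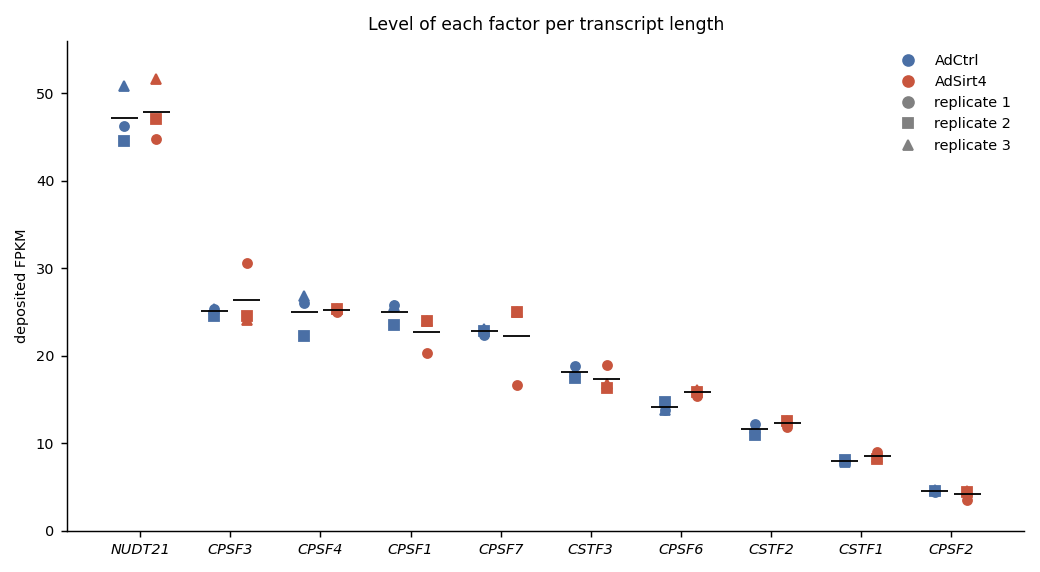
Deposited FPKM (vertical axis) of the 10 factors, ordered by their mean in AdCtrl cells, with 1 point per sample, symbol shape for the replicate number and a line at each group mean. NUDT21 stands above all others near 47 FPKM in both groups, and CPSF7 shows 1 AdSirt4 sample at 16.7 FPKM below the other 2 at 25.0.

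CPSF is assembled on CPSF1, its scaffold subunit (Entrez gene 29894, chromosome 8 of GRCh38.p14, 144393231 to 144409335). CPSF1 reached 127.0, 119.8 and 121.6 CPM in AdCtrl and 104.3, 119.0 and 117.3 CPM in AdSirt4 cells. All AdSirt4 samples lay below all AdCtrl samples, but AdSirt4 replicate 2 lay just below the lowest AdCtrl sample, and on the FPKM scale the groups overlapped. AdSirt4 cells had a log2 fold change of -0.11 (standard error 0.0949, 95% interval -0.34 to 0.11, edgeR adjusted p of 0.766), and without AdSirt4 replicate 1 it was -0.060.

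CPSF3, the endonuclease that cuts the pre-messenger RNA, lies on chromosome 2 from 9423654 to 9473101. Its CPM were 65.0, 64.7 and 62.4 in AdCtrl and 84.8, 62.8 and 60.7 in AdSirt4 cells. AdSirt4 replicate 1 was the highest of all samples and the other AdSirt4 samples lay within or below the AdCtrl range. Its log2 fold change of 0.12 (standard error 0.141, edgeR adjusted p of 0.812) turned to -0.057 without AdSirt4 replicate 1. CPSF2, the inactive relative of CPSF3 with which it pairs, lies on chromosome 14 from 92121969 to 92172145. CPSF2 deviated the other way in the same library, with 66.5, 69.7 and 67.1 CPM in AdCtrl and 55.7, 66.0 and 66.7 CPM in AdSirt4 cells. The test gave it a log2 fold change of -0.11 (standard error 0.101, edgeR adjusted p of 0.776), and without AdSirt4 replicate 1 it was -0.035.

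The ratio of CPSF3 to CPSF2 on the FPKM scale was 5.67, 5.35 and 5.38 in AdCtrl and 8.80, 5.49 and 5.27 in AdSirt4 cells. A single library thus held the high value and the others lay close together (two-sided exact permutation test, p = 0.7). CPSF4, the zinc-finger subunit that reads the AAUAAA hexamer together with WDR33, lies on chromosome 7 from 99438943 to 99457373. CPSF4 reached 51.9, 45.6 and 51.4 CPM in AdCtrl and 54.2, 50.1 and 49.3 CPM in AdSirt4 samples, so the groups overlapped, with AdSirt4 replicate 1 the highest sample and AdCtrl replicate 2 the lowest. CPSF4 had a log2 fold change of 0.045 (standard error 0.0967, edgeR adjusted p of 0.883), and -0.0036 without AdSirt4 replicate 1.

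**Figure D2:**
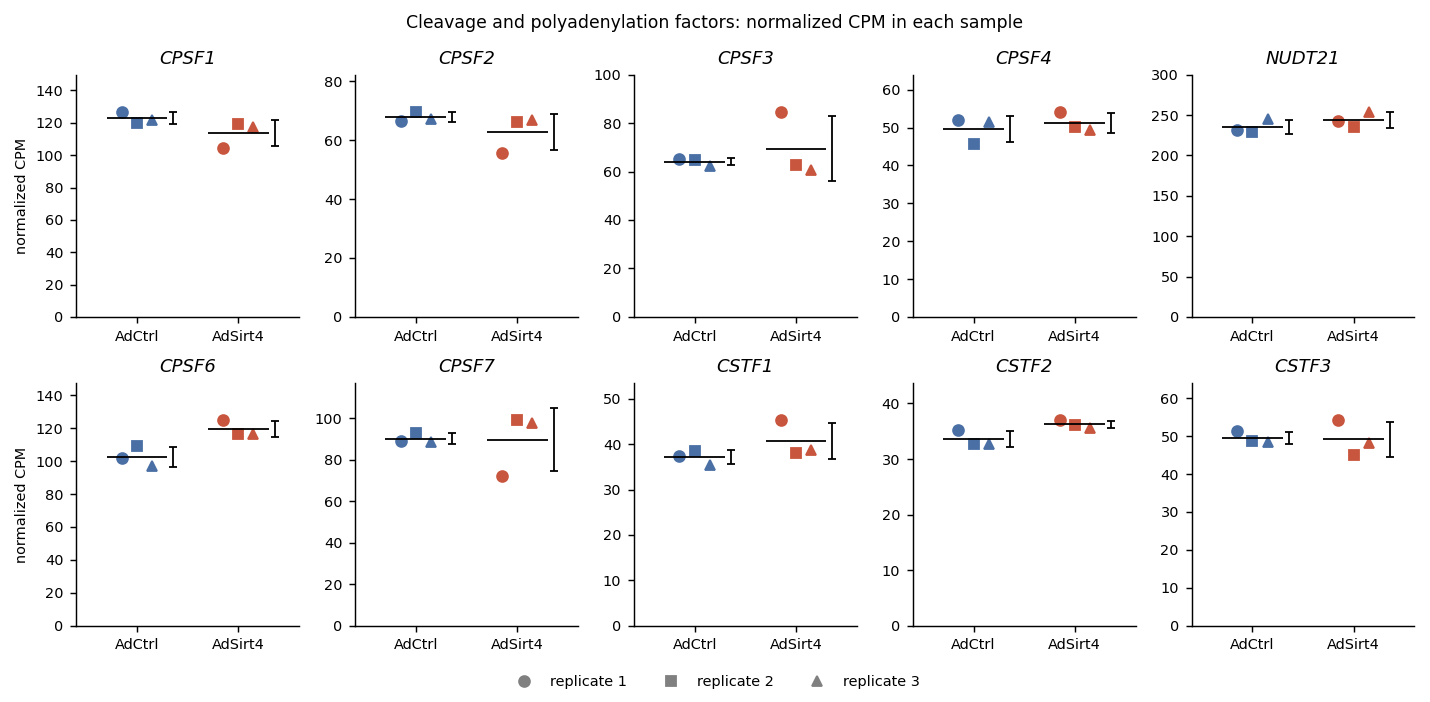
Normalized CPM (vertical axis from 0) of each factor in AdCtrl (blue) and AdSirt4 (red) samples, with symbol shape for the replicate number, a line at the group mean and a bar for ± 1 SD (n = 3). CPSF6 lies higher in all AdSirt4 samples (116.4 to 124.9 against 97.0 to 109.3 CPM), whereas in CPSF3 and CPSF7 AdSirt4 replicate 1 lies far from the other samples of its group.

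Cleavage factor I joins a pair of NUDT21 molecules, which hold the UGUA elements, with CPSF6 or CPSF7 as the large subunit. CPSF6 (Entrez gene 11052, chromosome 12, 69239569 to 69274358) reached 101.7, 109.3 and 97.0 CPM in AdCtrl and 124.9, 116.8 and 116.4 CPM in AdSirt4 cells. The AdSirt4 samples were all higher than the AdCtrl samples, also on the FPKM scale, where AdCtrl samples lay between 13.8 and 14.7 and AdSirt4 samples between 15.5 and 16.1. The mean was 102.7 ± 6.20 CPM in AdCtrl and 119.4 ± 4.80 CPM in AdSirt4 cells (SD, n = 3), a difference that did not pass the test, with a log2 fold change of 0.22 (1.16-fold, 95% interval 0.999 to 1.35) and a standard error of 0.0927. The p from edgeR was 0.0511 unadjusted and 0.628 adjusted, and the two-sided exact permutation test gave 0.1, the lowest p possible with 3 samples in each group. With the replicate number as a block the unadjusted p from edgeR was 0.0919.

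The direction of CPSF6 did not turn under any of the 16 alternatives, with log2 fold changes between 0.16 and 0.33, and the adjusted p ran from 0.0959 to 0.971. The lowest adjusted p was found without AdSirt4 replicate 1, where the log2 fold change was 0.18 (standard error 0.0595, unadjusted p of 0.0117 from edgeR). In that fit CPSF6 and CPSF7 had an unadjusted p under 0.05, which is 2 of 10 factors, both higher, where 24.3% of all 18287 genes tested there passed (11.8% in the higher direction), and 0 factors had an adjusted p under 0.05 where 6.71% of all genes did.

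CPSF7 (Entrez gene 79869, chromosome 11, 61402729 to 61429975), the alternative large subunit, reached 88.9, 93.0 and 88.6 CPM in AdCtrl and 72.2, 98.9 and 97.8 CPM in AdSirt4 cells. AdSirt4 replicate 1 was below every AdCtrl sample and AdSirt4 replicates 2 and 3 were above every AdCtrl sample. With all samples the log2 fold change was -0.0078 (standard error 0.137, edgeR adjusted p of 0.985), with a 95% interval from -0.33 to 0.32. Without AdSirt4 replicate 1 it was 0.12 (standard error 0.0505, unadjusted p of 0.0350 and adjusted p of 0.170 from edgeR). NUDT21 (Entrez gene 11051, chromosome 16, 56429133 to 56451332) is the subunit that binds UGUA and was the most abundant of the 3, with 231.3, 228.6 and 244.9 CPM in AdCtrl and 242.2, 234.8 and 254.5 CPM in AdSirt4 samples. The groups of NUDT21 overlapped, and its log2 fold change was 0.054 (standard error 0.0941, edgeR adjusted p of 0.861) with AdSirt4 replicate 1 and 0.054 without it.

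The balance of the large subunits was read as the ratio of CPSF6 to CPSF7 within each sample, which does not depend on library scaling. On the FPKM scale it was 0.617, 0.643 and 0.596 in AdCtrl and 0.926, 0.634 and 0.645 in AdSirt4 cells. AdSirt4 replicate 1 stood far above the rest, and AdSirt4 replicate 2 fell within the AdCtrl range. The log2 ratio differed by 0.23 between the groups (two-sided exact permutation test, p = 0.2) and by 0.047 without AdSirt4 replicate 1. The ratio of NUDT21 to CPSF6 was 3.34, 3.03 and 3.69 in AdCtrl and 2.90, 2.97 and 3.20 in AdSirt4 samples, with overlapping groups (exact permutation test, p = 0.2).

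The promoters of the 3 cleavage factor I genes are shown because they differ in a sequence that recurs among the factors. The sequences are those of RefSeq on GRCh38.p14, from 250 bases before to 50 bases after the annotated start. They were found for 9 of the 10 genes, as 11 promoters, and CPSF1 had no entry. The motifs searched on both strands were CCGGAAG, which ETS factors are known to bind, GGGCGG, the GC box, and TATAAA, the TATA box. Capitals mark the CCGGAAG and GGGCGG matches or their reverse complements. No CCGGAAG match overlapped a GC box, and the first capitals of CPSF7 hold a pair of overlapping GC boxes. The promoters of NUDT21 (chr16:56451283-56451582, minus strand), CPSF6 (chr12:69239319-69239618, plus strand) and CPSF7 (chr11:61429926-61430225, minus strand) read:
NUDT21: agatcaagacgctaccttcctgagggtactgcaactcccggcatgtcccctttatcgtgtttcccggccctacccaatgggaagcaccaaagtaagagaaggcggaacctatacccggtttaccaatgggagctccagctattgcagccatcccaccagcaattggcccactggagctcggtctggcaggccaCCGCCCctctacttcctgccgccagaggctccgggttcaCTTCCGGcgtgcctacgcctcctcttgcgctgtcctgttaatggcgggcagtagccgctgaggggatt
CPSF6: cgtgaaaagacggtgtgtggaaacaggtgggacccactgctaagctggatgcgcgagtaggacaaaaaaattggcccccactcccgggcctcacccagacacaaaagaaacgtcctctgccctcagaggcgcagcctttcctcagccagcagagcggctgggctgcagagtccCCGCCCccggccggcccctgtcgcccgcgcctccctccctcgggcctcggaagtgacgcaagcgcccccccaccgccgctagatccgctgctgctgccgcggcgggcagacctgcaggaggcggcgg
CPSF7: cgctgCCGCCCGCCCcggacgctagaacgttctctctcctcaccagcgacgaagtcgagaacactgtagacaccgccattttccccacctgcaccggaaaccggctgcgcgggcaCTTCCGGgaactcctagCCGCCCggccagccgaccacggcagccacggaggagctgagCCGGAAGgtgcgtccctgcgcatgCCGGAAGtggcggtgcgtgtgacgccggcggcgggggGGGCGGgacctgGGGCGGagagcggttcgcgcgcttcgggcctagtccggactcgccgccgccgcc

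NUDT21 held 1 CCGGAAG match and 1 GC box, CPSF7 held 3 and 5, and CPSF6 held no CCGGAAG match and 1 GC box. CCGGAAG was present in 6 of the 11 promoters, 1 each of NUDT21, CPSF3, CPSF7, CSTF1, CSTF2 and CSTF3, and in 10.3% of all 35116 promoters in the RefSeq table. The GC box was present in 7 of the 11 promoters and in 45.0% of all promoters, and TATAAA in 0 of the 11 promoters and in 11.5% of all promoters. The GC content of the 11 promoters ran from 57.3% to 73.3%, where the median of all promoters was 58.7%. Their number of CG letter pairs ran from 16 (NUDT21) to 43 (CPSF4), where the median of all promoters was 14. CCGGAAG and the GC box each hold such a pair, and the shares were not compared among promoters of like CG number. These matches describe letters in a window and not bound sites. CPSF2, CPSF4 and CPSF6 had no exact CCGGAAG match. Near matches were not counted in any promoter. The CPSF6 promoter holds TCGGAAG, which differs from CCGGAAG in its first letter only, so a site for ETS factors is not excluded there.

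CstF consists of CSTF1, CSTF2 and CSTF3. CSTF2, the subunit that binds the GU-rich sequence, lies on the X chromosome from 100820391 to 100841520. CSTF2 reached 35.3, 32.7 and 32.8 CPM in AdCtrl and 37.0, 36.1 and 35.6 CPM in AdSirt4 cells. The AdSirt4 samples were all higher than the AdCtrl samples in CPM, by a narrow gap (exact permutation test, p = 0.1), and the groups overlapped in FPKM. In the test this gave a log2 fold change of 0.11 (standard error 0.0874, edgeR adjusted p of 0.757), and it was 0.090 without AdSirt4 replicate 1.

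CSTF1, the WD-repeat subunit, lies on chromosome 20 from 56392379 to 56406362 and reached 37.4, 38.5 and 35.4 CPM in AdCtrl and 45.3, 38.0 and 38.7 CPM in AdSirt4 samples. AdSirt4 replicate 1 was the highest, and the other AdSirt4 samples lay close to the top of the AdCtrl range. In FPKM the AdSirt4 samples of CSTF1 (8.25 to 9.00) lay above the AdCtrl samples (7.91 to 8.08), the reverse of CSTF2, whose groups parted in CPM only. The log2 fold change of CSTF1 was 0.13 (standard error 0.105, edgeR adjusted p of 0.755), and it was 0.044 without AdSirt4 replicate 1. CSTF3, the scaffold that joins the subunits to CPSF, lies on chromosome 11 from 33084584 to 33161480. Its CPM were 51.3, 48.7 and 48.5 in AdCtrl and 54.2, 45.1 and 48.3 in AdSirt4 samples, which enclosed the whole AdCtrl range. For CSTF3 the log2 fold change was -0.010 (standard error 0.101, edgeR adjusted p of 0.974), and -0.090 without AdSirt4 replicate 1. Exons of TCP11L1 and LINC00294 on the opposite strand cover 8.69% and 5.83% of the exon bases of CSTF3, and without strand their reads cannot be told apart from its own.

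CSTF2T, an intronless copy of CSTF2 on chromosome 10 (51695486 to 51699595), encodes a protein that can take the place of CSTF2. No stretch of 50 bases was shared by the CSTF2T transcript and any other GENCODE v29 transcript, and the same was true of CSTF2, so that reads of this length can be told apart. CSTF2T reached 65.1, 67.6 and 63.7 CPM in AdCtrl and 64.6, 61.1 and 68.4 CPM in AdSirt4 samples, with a log2 fold change of -0.017 (standard error 0.0878, edgeR adjusted p of 0.952). Per length the copies were near each other, with a ratio of CSTF2 to CSTF2T of 0.829 ± 0.0488 in AdCtrl and 0.910 ± 0.0589 in AdSirt4 cells (SD, n = 3; exact permutation test on the log2 ratio, p = 0.2).

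**Figure D3:**
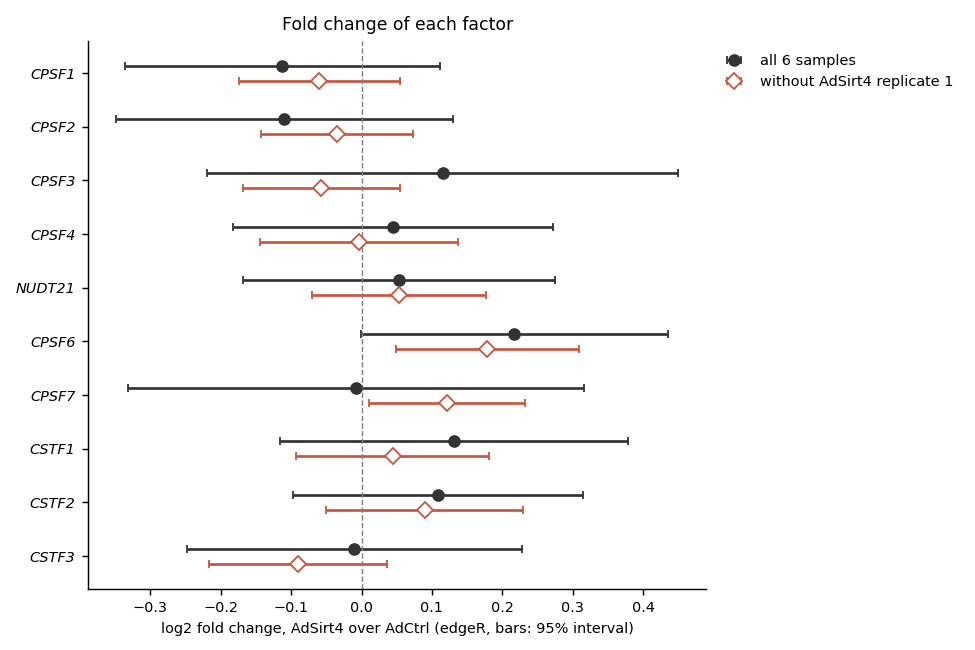
Log2 fold change of AdSirt4 over AdCtrl cells for each factor (horizontal axis), with bars for the 95% interval, from edgeR with all 6 samples (black) and without AdSirt4 replicate 1 (red). All black intervals include 0, and without that library the intervals are shorter and those of CPSF6 and CPSF7 lie above 0.

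AdSirt4 replicate 1 was the extreme sample for most factors. It held the highest CPM of the 6 samples for 6 factors (CPSF3, CPSF4, CPSF6, CSTF1, CSTF2 and CSTF3) and the lowest for 3 (CPSF1, CPSF2 and CPSF7). The coefficient of variation among AdSirt4 samples ran from 1.89% for CSTF2 to 19.2% for CPSF3, and from 0.283% to 5.69% without that replicate. Among AdCtrl samples it ran from 2.22% for CPSF3 to 7.05% for CPSF4. The factors had between 1390 and 20683 counts per sample, for which counting error alone is 0.695% to 2.68% (1 SD).

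The deviation of AdSirt4 replicate 1 was then read against transcript length. CPSF3 (2.58 kb) was 1.37-fold higher in AdSirt4 replicate 1 than the mean of replicates 2 and 3 and CPSF7 (3.99 kb) was at 0.734-fold, the extremes among the factors. Across the 10 factors the deviation and the length had a Spearman correlation of -0.55, and across the 17720 tested genes of -0.59, as a description of points that share their libraries. CPSF6 (7.41 kb) went against this trend, with a deviation of 0.099 on the log2 scale where the median of its length decile was -0.43. CPSF2, with -0.25 against -0.74, and CSTF1, with 0.24 against -0.16, also lay above their decile, and CPSF7, with -0.45 against -0.038, lay below it. With the length trend of each library removed, the log2 fold change of CPSF6 was 0.33 (unadjusted p of 0.0497 and adjusted p of 0.359 from edgeR), and that of CPSF2 turned from -0.11 to 0.084. An unadjusted p under 0.05 was found for 13.9% of all genes in that fit. Beyond these fits the part of length in the factors' values was not tested.

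**Figure D4:**
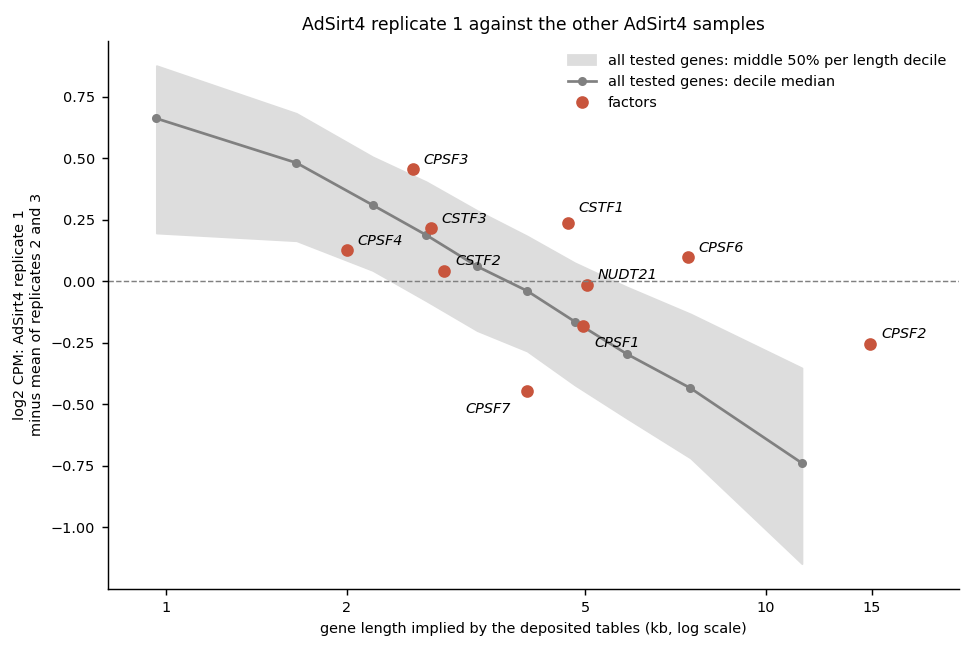
Log2 CPM of AdSirt4 replicate 1 minus the mean of AdSirt4 replicates 2 and 3 (vertical axis) against transcript length in kb (horizontal axis, log scale) for the 10 factors (red), with the median (grey line) and the middle 50% (shading) of all tested genes in each length decile. CPSF6, CSTF1 and CPSF3 lie above the shading, CPSF7 lies below it, and CPSF2, to the right of the last decile's midpoint, lies above that decile's shading.

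The other genes of 3′-end formation were read from lists that drew on general knowledge. These lists were chosen with earlier results of these data known. Of 16 further core factors of cleavage and polyadenylation, among them the hexamer reader WDR33, the scaffold SYMPK and the poly(A) polymerase PAPOLA, 14 were tested. Among these, 7 had a log2 fold change above 0 and 7 below 0 (median 0.014), and 0 of them had an unadjusted p under 0.05 in edgeR. The remaining 2 are PAPOLB, with 0 counts in every sample, which allows up to 0.0722 CPM in the shallowest library by counting error alone, and CPSF4L, with at most 6 counts in a sample. They are outside the naming rule and were picked out once their values were known. The Integrator cleavage module, which cuts small nuclear RNAs with relatives of CPSF2 and CPSF3, had 0 of 3 genes with an unadjusted p under 0.05, as had transcription termination (0 of 4) and the U1 small nuclear ribonucleoprotein (0 of 3), which is known to hold back cleavage at early sites. U2AF2 itself reached 211.0, 214.2 and 183.2 CPM in AdCtrl and 207.6, 221.0 and 199.9 CPM in AdSirt4 samples, with a log2 fold change of 0.047 (standard error 0.106, edgeR adjusted p of 0.888).

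Replication-dependent histone messages are cut without a poly(A) tail by a machinery that shares CPSF2, CPSF3 and CSTF2 and is guided by the U7 small nuclear ribonucleoprotein. Of 4 genes particular to it, 1 had an unadjusted p under 0.05, LSM11 (Entrez gene 134353, chromosome 5, 157743712 to 157760709), a protein of the U7 particle. Of all tested genes 7.93% had such a p in edgeR, with 3.5% lower in AdSirt4 cells. LSM11 reached 15.7, 13.2 and 16.4 CPM in AdCtrl and 9.65, 12.8 and 12.3 CPM in AdSirt4 cells. All AdSirt4 samples lay below all AdCtrl samples in CPM, as for 9.77% of all tested genes. In FPKM the groups overlapped, with AdSirt4 replicate 2 and AdCtrl replicate 2 at 1.72 and 1.71. The log2 fold change was -0.38 (standard error 0.148, unadjusted p of 0.0362 and adjusted p of 0.612 from edgeR), and without AdSirt4 replicate 1 it was -0.28 with an adjusted p of 0.115. With the replicate number as a block its unadjusted p from edgeR was 0.0517, above 0.05. SLBP, which binds the stem-loop of histone messages and was picked out once its values were known, lay the other way, with a mean of 173.7 CPM in AdCtrl and 224.6 CPM in AdSirt4 cells and no overlap in CPM. Of all tested genes 9.66% were likewise higher in every AdSirt4 sample. SLBP had a log2 fold change of 0.37 (standard error 0.204, unadjusted p of 0.113 and adjusted p of 0.702 from edgeR). LSM11 is 7.53 kb long and AdSirt4 replicate 1, the lowest sample, is low in long genes. With the length trend of each library removed, LSM11 had a log2 fold change of -0.30 (unadjusted p of 0.0193 and adjusted p of 0.269 from edgeR). In that fit 13.9% of all genes had an unadjusted p under 0.05. The cause of the LSM11 difference was not tested. Over the 28 tested genes of all these lists, 13 had a log2 fold change above 0 and 15 below 0 (median -0.012), and 0 had an adjusted p under 0.05. Of these 28, 1 had an unadjusted p under 0.05 in edgeR, beside 7.93% of all tested genes. Their groups did not overlap in CPM for 4 of the 28, beside 19.4% of all tested genes. These were SLBP and SNRNP70, higher in AdSirt4 cells, and LSM11 and SYMPK, lower. SNRNP70, of the U1 particle, had a log2 fold change of 0.35 (unadjusted p of 0.0996 and adjusted p of 0.697 from edgeR). For SYMPK it was -0.056 (adjusted p of 0.840 from edgeR). Both were picked out once their values were known.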

How the data were processed

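RNA-seq of 6 HK2 samples (RNA captured on oligo-dT and primed at random) was analysed from 2 deposited tables. The authors deposited raw, unnormalized read counts per gene. The unit of the other table is not named in it and was read as FPKM as deposited, because the gene length implied by both tables varied by at most 1.09-fold between samples for every factor. Per the submitters' processing notes, fastp 0.21.0, HISAT2 2.1.0, StringTie 2.1.5, DESeq2 1.30.1 and the build hg38 were used, with roles not given in the sources used here. Column names were matched to the sample titles.

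Counts were tested with edgeR 4.0.16 in R 4.3.3 (filterByExpr at a minimum count of 10, TMM scaling, robust quasi-likelihood test, Benjamini-Hochberg adjustment over all 17720 genes tested, threshold 0.05). CPM are counts scaled by these library sizes. Ratios were tested with two-sided exact permutation tests. The alternatives were DESeq2 1.42.0, RLE scaling, 2 other count filters, the replicate block, removal of each library's lowess trend on gene length (span 0.3), that removal with the block, limma 3.58.1 on log2(FPKM + 1), on log2(FPKM + 0.1) and with a mean FPKM minimum of 1, and every sample left out once. Fold changes on the log2(FPKM + 1) scale understate those of low genes.

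The factors, the lists and the rule for named genes (all 10 factors, SIRT4, U2AF2, CSTF2T and up to 5 list genes with the smallest p among those with an unadjusted p under 0.05) were chosen with earlier results of these data known. Deviations from the group means correlated at 0.159 to 0.178 between same-numbered samples of the groups and at -0.188 to 0.030 between others, so the numbers were taken to pair the samples. The main edgeR fit and the exact permutation tests leave this pairing out, and the replicate block takes it in. With the block, the adjusted p from edgeR ran from 0.694 (CPSF6) to 0.968 (CSTF3) over the factors. No replicate pair was a copy of another (chi-square per gene of 9.97 to 236.7). The edgeR fit, with and without the replicate block, and DESeq2 were tested on simulated data. Without the block, edgeR recovered 66 of 100 genes changed 1.5-fold and 95 of 100 changed 2-fold, with 11 false calls. The simulation gave all genes the same dispersion and held neither the length deviation of AdSirt4 replicate 1 nor pairing. It therefore does not tell how often changes as small as those of the factors would be found in these libraries. The largest overlap of a factor's exon bases with the exons of a single other GENCODE v29 gene was 8.69% (TCP11L1 on CSTF3), and strand was not stated for the counting. Tables and figures were made with Python 3.11.15, pandas 2.3.3, scipy 1.17.1 and matplotlib 3.10.9.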

Additional observations from a re-analysis of the deposited data

How the results depend on the processing

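No factor reached an adjusted p under 0.05 under any of the 16 alternatives, and CPSF1, CPSF6, NUDT21, CSTF1, CSTF2 and LSM11 kept their direction under all of them. The number of factors with an unadjusted p under 0.05 was 1 (CPSF6) under DESeq2, with at least 10 counts in every sample and with the length trend removed, with and without the replicate block, beside 9.24%, 8.45%, 13.9% and 13.9% of all genes in these fits, and 0 to 2 when a sample was left out, 2 being without AdSirt4 replicate 1. The number of all genes with an adjusted p under 0.05 was 2 with all samples, 206 under DESeq2, 5 with all genes of at least 1 count, 4 with at least 10 counts in every sample, 1 with the replicate block, 12 and 6 with the length trend removed without and with the block, 0, 1 and 5 in limma on log2(FPKM + 1), on log2(FPKM + 0.1) and with a mean FPKM minimum of 1, and 0 to 1227 when a sample was left out, the highest without AdSirt4 replicate 1. The log2 fold change of SIRT4 was 4.88 in limma on log2(FPKM + 1) with an adjusted p of 0.0847, and 6.10 to 6.59 with a sample left out, where the adjusted p rose above 0.05 without AdCtrl replicate 1, 2 or 3 (0.0559, 0.203 and 0.186). The cause was not tested.

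The log2 fold changes of 5 factors, CSTF2T and U2AF2 turned in sign under at least 1 alternative. With the length trend removed, without and with the replicate block, CPSF2 was at 0.084 and 0.061, CPSF4 at -0.022 and -0.024 and CSTF2T at 0.021 and 0.020, CPSF7 was at 0.0016 without the block, and U2AF2 at -0.00092 with it. With a sample left out, CPSF3 ran from -0.057 to 0.20, CPSF4 from -0.013 to 0.079, CPSF7 from -0.080 to 0.12, CSTF3 from -0.090 to 0.055, CSTF2T from -0.059 to 0.029 and U2AF2 from -0.022 to 0.087. The replicate block changed no call among the factors, and took LSM11 above an unadjusted p of 0.05 (0.0517). It left the group difference of the CPSF6 to CPSF7 log2 ratio at 0.23 and of the CSTF2 to CSTF2T log2 ratio at 0.13. The exact sign-flip p was 0.5 and 0.25, where 3 pairs cannot go below 0.25. As ratios of counts these differences were 0.24 and 0.13 (exact permutation p of 0.1 and 0.2). With a sample left out, the differences on the FPKM scale ran from 0.047 to 0.32 and from 0.090 to 0.19.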
